A study of Mus musculus with 13 samples.

Results

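The genes described here are 10 genes of the chondrocyte lineage, the cells that make cartilage: the transcription factors Sox5, Sox6 and Sox9 and the matrix genes Acan, Comp, Hapln1, Chad, Matn1, Matn3 and Matn4. They were chosen by name and matched by symbol to the gene identifiers in both deposited count tables, where all 10 were found among 55487 genes. The study followed spontaneous immortalization of mouse embryonic fibroblasts (MEFs) by poly-A RNA-seq, and 13 libraries were analysed here. The wild-type (WT) libraries were 3 primary cultures, clones 3, 4 and 5, and 3 immortalized lines with the same clone numbers. The libraries labelled Prkd3-/- were 3 primary cultures, clones 13, 14 and 15, and 4 immortalized lines, 13, 13a, 14 and 15. Prkd3 encodes a protein kinase D, and no label gives another allele or agent. The study's methods describe WT MEFs, grown in medium with 10% fetal calf serum. Lines arose in 20% serum after passaging to senescence by a modified 3T3 protocol, so each WT line grew out of a culture that had passed through that selection. Each line is treated here as 1 sample. Lines 13 and 13a share a clone number, and their labels do not say whether they arose independently. Genotype coincided with the table in which a library was deposited and with the Xist level of the cultures, so these cannot be told apart. The study's methods describe WT cultures from 3 embryos. For the Prkd3-/- label the sources used here do not say whether the clones came from separate embryos. The WT primary libraries differed by only 1.46% to 2.30% beyond sampling noise, and each held both Xist and Y-linked Ddx3y. In both genotypes p-values therefore measure the spread between these samples, which may be technical.

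Chondrocytes arise from mesenchymal cells under the control of SOX9, which with its partners SOX5 and SOX6 drives transcription of cartilage matrix genes. The matrix they secrete is built on type II collagen fibrils and on aggrecan, the large proteoglycan encoded by Acan, which link protein (Hapln1) fastens to hyaluronan. Matrilins, COMP and chondroadherin (Chad) connect these networks to each other and to cells.

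Depth ranged from 55436367 to 90654323 counts in the WT libraries and from 35273408 to 100441756 in those labelled Prkd3-/-. Levels are given as CPM, that is, counts per 1e6 after TMM scaling, on a scale shared by all 13 libraries. On it 3 counts correspond to 0.0277 to 0.0842 CPM depending on the library. Counts are read pairs in WT, while the sources used here do not state the unit for the Prkd3-/- label. Spread beyond sampling noise was taken for each pair of libraries as the median coefficient of variation over well-counted genes. It was 1.46% to 2.30% among the WT primary libraries and 13.4% to 17.4% among the WT lines. Among the primary cultures labelled Prkd3-/- it was 6.18% to 15.1%, and among their lines 18.0% to 35.7%. Fibroblast markers were abundant in every library, at summed levels of 18568 to 67202 CPM. Prkd3 itself was counted at 69.2 to 93.8 CPM in WT and 33.6 to 61.0 CPM in the libraries labelled Prkd3-/-, and counts per gene cannot show the loss of single exons. Each WT primary library held both Xist, at 43.9 to 55.9 CPM, and Y-linked Ddx3y, at 51.6 to 63.8 CPM. The WT lines held Xist at 56.2 to 170.3 CPM and Ddx3y at 0.209 to 65.3 CPM, whereas Xist was at most 0.156 CPM and Ddx3y at 47.5 to 153.6 CPM in the libraries labelled Prkd3-/-. In bulk RNA, fewer cells of a type and less RNA per cell cannot be told apart.

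Per kilobase of exon, the order of the mean levels in WT primary MEFs began with Sox9 at 5.85 and Comp at 4.95 CPM per kb. Acan (0.992), Sox6 (0.833), Hapln1 (0.829), Matn4 (0.658) and Sox5 (0.577 CPM per kb) followed, and the ranges of each overlapped that of its neighbour in this order, before Matn3 at 0.294. Chad and Matn1 lay at 0.0325 and 0.0283 CPM per kb, or 2 to 5 read pairs per library. Among the WT immortalized lines Sox9 still led, at a mean of 10.8 CPM per kb, while Hapln1 and Acan lay near the bottom of the order beside Matn1 and Chad, with 0.0129 and 0.0258 CPM per kb.

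**Figure D1:**
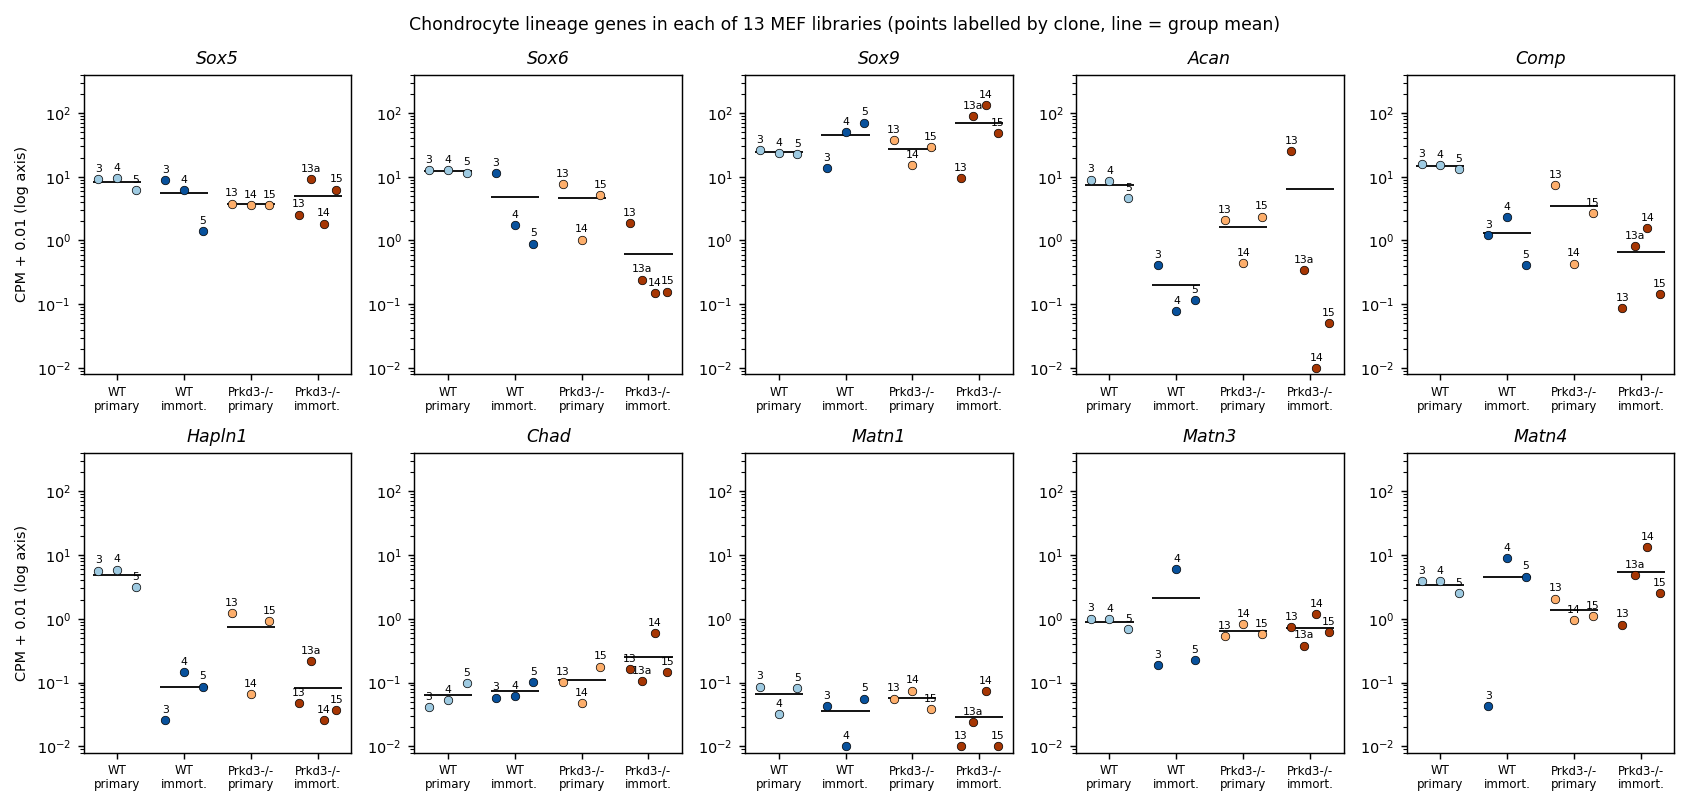
Level of each of the 10 genes in the 13 libraries (vertical axis, CPM + 0.01, log scale), with 1 point per library labelled by clone and a horizontal line at each group mean. Acan, Comp and Hapln1 were lower in every WT line than in every WT primary culture, Sox9 was higher in 2 of the 3 WT lines and 3 of the 4 lines labelled Prkd3-/-, and line 13 alone held Acan at 25.1 CPM.

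Sox9, the master regulator of the lineage, was counted at 26.0, 23.6 and 22.9 CPM in WT primary clones 3, 4 and 5 and at 13.7, 49.6 and 70.2 CPM in WT lines 3, 4 and 5. Line 3 lay below the primary cultures and lines 4 and 5 above them, so the groups overlapped. In the edgeR fit over all genes the Log2FC, the log2 fold change of immortalized over primary MEFs, was 0.88 with a standard error (SE) of 0.55 (n = 3 and 3, edgeR adjusted p-value = 0.444, Benjamini-Hochberg over all genes tested). Among the libraries labelled Prkd3-/-, Sox9 stood at 37.2, 15.2 and 29.3 CPM in primary clones 13, 14 and 15 and at 9.60, 90.4, 131.1 and 48.0 CPM in lines 13, 13a, 14 and 15. Again 1 line lay below all primary cultures and the other lines above them. The Log2FC was 1.36 (SE 0.79, n = 3 and 4, adjusted p-value = 0.830).

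Sox6, an SOX partner with no activation domain of its own, showed 12.7, 12.8 and 11.6 CPM in WT primary clones 3, 4 and 5. WT line 3 held 11.5 CPM, just under the primary range, whereas line 4 held 1.74 and line 5 held 0.887 CPM. The Log2FC was -1.39 (SE 0.93, adjusted p-value = 0.474), and without line 3 it was -3.23 and passed the thresholds (adjusted p-value = 0.00777). The primary cultures labelled Prkd3-/- held 7.68, 1.03 and 5.16 CPM in clones 13, 14 and 15, and their lines 1.87, 0.233, 0.141 and 0.148 CPM in lines 13, 13a, 14 and 15. Lines 13a, 14 and 15 lay below every primary culture and line 13 above primary clone 14. The Log2FC was -2.98 (SE 1.12, unadjusted p = 0.0306, adjusted p-value = 0.710 in edgeR).

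Sox5, the other partner, was less ordered by state. WT primary clones 3, 4 and 5 held 9.16, 9.56 and 6.19 CPM and the lines of the same numbers 8.86, 6.13 and 1.41 CPM. Line 3 lay inside the primary range and line 5 far below it, with a Log2FC of -0.61 (SE 0.63, adjusted p-value = 0.652). In the cultures labelled Prkd3-/-, the primary values were 3.79, 3.60 and 3.62 CPM and the lines 13, 13a, 14 and 15 held 2.54, 9.17, 1.83 and 6.27 CPM. Lines 13 and 14 were below the narrow primary range and lines 13a and 15 above it (Log2FC 0.42, SE 0.57, adjusted p-value = 0.899). Of the Sox5 exon bases 9.25% are shared with Sox5os1, an overlapping transcript. The WT counting ignored strand, so reads there cannot be assigned to either gene alone. The strand setting for the Prkd3-/- label is not stated.

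Because the trio works together, its composition was also expressed per kilobase of exon. Sox9 made up 78.9% to 82.0% of the summed Sox5, Sox6 and Sox9 level in the WT primary libraries. WT line 3 held 70.4%, line 4 95.7% and line 5 99.1%, so that line 3 lay under and the other lines above the primary range. In the primary cultures labelled Prkd3-/- the share was 92.0% to 92.2%, and in lines 13, 13a, 14 and 15 it was 88.5%, 97.1%, 99.6% and 96.3%. Within each genotype the lines ordered by Sox9 share as they did by Sox9 level, and lines 3 and 13, with the lowest share in their genotypes, kept the most Sox6 among the lines of their genotype.

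**Figure D2:**
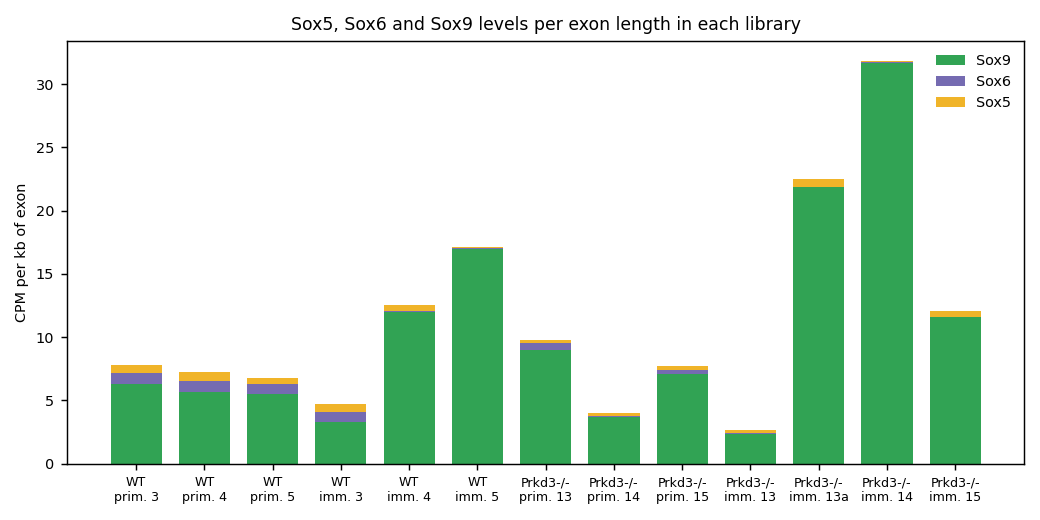
Stacked levels of Sox9, Sox6 and Sox5 in each of the 13 libraries (vertical axis, CPM per kb of exon, linear from 0). Sox9 filled 70.4% of the stack in WT line 3 and 88.5% in line 13 of the Prkd3-/- label, and 95.7% to 99.6% in the other 5 lines.

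For 8 of the 10 genes a RefSeq promoter was at hand (build GRCm38.p6), and 3 are shown, with the 250 bases before a RefSeq transcript start on the coding strand. The RefSeq start of Acan lies upstream of the GENCODE gene start used for its coordinates, and distances are counted from the RefSeq start. They stand for a matrix gene that was low in 6 of 7 lines (Acan), a matrix gene whose lines lay on both sides of its primary cultures (Matn3), and a partner of SOX9 (Sox6, 1 of its 6 RefSeq windows, chosen after the matches were seen). Capitals mark the letters AACAAT or ACAAAG, which resemble the core that SOX proteins bind, on either strand. They also mark the GC box, GGGCGG, on either strand.
Acan, chr7:79052976-79053225, plus strand: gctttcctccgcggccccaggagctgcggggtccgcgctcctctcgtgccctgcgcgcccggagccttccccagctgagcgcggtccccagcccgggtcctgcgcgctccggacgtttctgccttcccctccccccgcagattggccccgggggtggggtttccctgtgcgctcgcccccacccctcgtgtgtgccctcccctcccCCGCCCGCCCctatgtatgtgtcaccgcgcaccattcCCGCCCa
Matn3, chr12:8947679-8947928, plus strand: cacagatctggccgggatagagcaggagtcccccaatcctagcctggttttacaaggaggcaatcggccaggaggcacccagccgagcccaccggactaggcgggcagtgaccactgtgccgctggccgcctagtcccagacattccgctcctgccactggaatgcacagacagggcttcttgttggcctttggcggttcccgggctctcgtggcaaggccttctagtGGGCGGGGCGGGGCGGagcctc
Sox6, chr7:115824711-115824960, minus strand: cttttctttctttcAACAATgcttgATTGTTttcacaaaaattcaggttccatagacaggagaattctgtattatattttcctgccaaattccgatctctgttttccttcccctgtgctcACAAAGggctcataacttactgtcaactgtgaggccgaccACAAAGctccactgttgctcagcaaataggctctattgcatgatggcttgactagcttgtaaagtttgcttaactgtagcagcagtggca
The Acan window, with 74.4% G and C, held the GC box 3 times, at 44, 40 and 7 bases before the start, the first pair overlapping. In the Matn3 window (65.2% G and C) it occurred 3 times at 22, 17 and 12 bases before the start, each overlapping the next. Neither window held the SOX-type letters. The Sox6 window shown, with 41.6% G and C, held AACAAT 2 times and ACAAAG 2 times. It was the 1 window of 6 for Sox6 with AACAAT, 5 of the 6 held ACAAAG and 1 of the 6, another one, held the GC box. Over all 32851 promoter windows of that length, 9.42% held AACAAT, 16.5% ACAAAG and 32.7% the GC box. These are matches of letters and not binding sites.

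Aggrecan and link protein, which assemble the hyaluronan-bound gel of cartilage, and the pentameric matrix protein COMP were the members with the lowest levels in WT lines relative to primary MEFs. Only Hapln1 passed both thresholds, which asked for a |Log2FC| of 1 or more with an adjusted p-value below 0.01, that is 1 of the 8 members tested, where 1.82% of the 19836 genes tested passed in either direction and 1.76% as lower. Sox6, Acan, Comp and Hapln1 were lower in every line than in every primary culture, a pattern found for 17.3% of all genes tested. The median Log2FC of the 8 members was -0.998, and that of all genes tested 0.04.

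Hapln1 (chr13:89539796-89611652, GRCm38, plus strand) was counted at 5.69, 5.88 and 3.11 CPM in WT primary clones 3, 4 and 5, or 174 to 540 read pairs. In WT lines 3, 4 and 5 it was at 0.0161, 0.135 and 0.0765 CPM, or 1, 8 and 5 read pairs. All lines lay far below all primary cultures, and the means differed 64.4-fold. Hapln1 fell in WT lines with a Log2FC of -5.99 (SE 0.67, adjusted p-value = 0.00781), but with clone number as a replicate block the Log2FC was -6.05 and the adjusted p-value 0.0638, so that no member passed. The call was likewise lost when any WT primary library or line 4 or 5 was left out (adjusted p-value 0.0121 to 0.0528), with a Log2FC of -6.65 to -5.83.

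Acan (chr7:79053483-79115099, plus strand) stood at 9.02, 8.61 and 4.60 CPM in WT primary clones 3, 4 and 5 and at 0.403, 0.0677 and 0.107 CPM in WT lines 3, 4 and 5. As for Hapln1, primary clone 5 held the lowest level of the primary cultures and was still far above every line. The means differed 38.5-fold. With a Log2FC of -5.25 (SE 0.74, adjusted p-value = 0.0170), Acan missed the threshold of 0.01 in edgeR and passed it in DESeq2 (adjusted p-value = 4.73e-15) and in edgeR without line 3 (adjusted p-value = 0.00438).

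Comp (chr8:70373558-70382066, plus strand), which binds collagen fibrils and is also made by tendon, was counted at 15.6, 15.4 and 13.2 CPM in WT primary clones 3, 4 and 5 and at 1.21, 2.34 and 0.398 CPM in WT lines 3, 4 and 5. The groups were well apart, with an 11.2-fold difference of the means. The Log2FC was -3.49 (SE 0.63, adjusted p-value = 0.0358 in edgeR, 3.74e-08 in DESeq2), and without line 5 it passed in edgeR at -3.05 (adjusted p-value = 0.00903). At an adjusted p-value under 0.05 with no limit on Log2FC, the members passing in WT were Hapln1, Acan and Comp, 3 of 8, all lower, where 5.27% of all genes did, 4.57% as lower and 0.696% as higher. The same 3 members, and 19.7% of all genes, had an unadjusted p under 0.05 in edgeR.

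Beside these differences, the 7 macrophage markers moved with state. Their summed level was 557 to 572 CPM in WT primary cultures and 28.8 to 87.8 CPM in WT lines, with all 7 above 3 counts in every WT library. Within the WT primary cultures the macrophage sum was nearly level while Acan and Hapln1 were lower in clone 5 than in clones 3 and 4. The tendon markers Scx, Mkx and Tnmd summed to 60.6 to 65.6 CPM in WT primary cultures and to 9.01 to 129.5 CPM in the lines, which overlapped. Markers of sparser cells were also lower in WT lines, with sums of 10.7 to 15.7 CPM against 0.371 to 1.96 CPM for endothelial, 22.6 to 26.2 against 0.728 to 7.14 for skeletal muscle, 2.28 to 2.59 against 0.145 to 0.474 for epithelial and 1.56 to 1.94 against 0.564 to 1.22 CPM for Schwann and neural crest markers. The muscle sum was nearly all Des, at 22.4 to 25.8 CPM in WT primary cultures and 0.728 to 7.09 CPM in WT lines. In WT primary cultures the endothelial sum was nearly all Kdr and Tek, with group means of 5.42 and 6.79 CPM. In WT lines these were 0.527 and 0.245 CPM, while Cdh5 and Pecam1 overlapped between states. Osteoblast markers overlapped, at 1718 to 2286 CPM in primary cultures and 649 to 2209 CPM in lines. That sum was nearly all Spp1, with group means of 2075 and 1184 CPM. The part of other cell types in these differences was not tested.

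**Figure D3:**
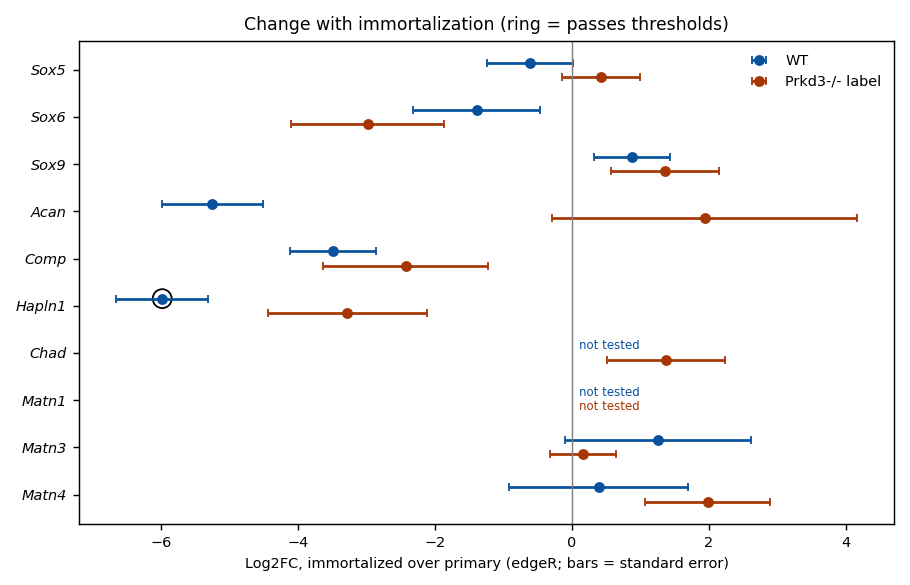
Log2FC of immortalized over primary MEFs for each gene (horizontal axis, edgeR, bars are 1 standard error) in WT (3 and 3 libraries) and in the libraries labelled Prkd3-/- (3 and 4). The ring marks Hapln1 in WT at -5.99, the 1 value that passed, and Acan lies at -5.25 in WT and at 1.94 with an SE of 2.23 in the other genotype.

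In the libraries labelled Prkd3-/-, 0 of the 9 members tested passed, as did 0.0% of the 20298 genes tested in edgeR, while 6.56% of genes and 2 members, Hapln1 and Sox6, had an unadjusted p under 0.05. DESeq2 called 192 genes there and no member. No member separated the 4 lines from the 3 primary cultures without overlap, a pattern that 4.19% of all genes showed above and 5.26% below.

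Hapln1 stood at 1.22, 0.0555 and 0.898 CPM in primary clones 13, 14 and 15 and at 0.0382, 0.206, 0.0156 and 0.0270 CPM in lines 13, 13a, 14 and 15 of the Prkd3-/- label. Lines 13, 14 and 15 were below all primary cultures, and line 13a lay above primary clone 14. The Log2FC was -3.28 (SE 1.17, unadjusted p = 0.0247, adjusted p-value = 0.689 in edgeR). Comp stood at 7.41, 0.425 and 2.67 CPM in the same primary cultures and at 0.0764, 0.809, 1.56 and 0.135 CPM in the lines. Lines 13 and 15 were under every primary culture and lines 13a and 14 above primary clone 14, with a Log2FC of -2.43 (SE 1.21, adjusted p-value = 0.790). Without primary clone 13 it was -1.25.

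Acan stood at 2.05, 0.435 and 2.36 CPM in primary clones 13, 14 and 15, and in lines 13, 13a, 14 and 15 at 25.1, 0.329, 0 and 0.0405 CPM. Line 13 thus exceeded every other library of the study, WT primary cultures included, with 1313 counts. Lines 13a, 14 and 15 were below every primary culture and line 14 held none. A count of 0 in line 14 allows up to 0.0469 CPM. The Log2FC of 1.94 (SE 2.23, adjusted p-value = 0.886) turned on that line: without line 13 it was -3.67 (unadjusted p = 0.0316, adjusted p-value = 0.486 in edgeR).

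Primary clone 14 stood apart from primary clones 13 and 15 in these same genes. Compared with the lower of the 2 other clones, it held 16.2 times less Hapln1, 6.27 times less Comp, 5.03 times less Sox6, 4.72 times less Acan and 1.93 times less Sox9. Its macrophage markers summed to 791.9 CPM, against 79.5 CPM in clone 13 and 181.6 CPM in clone 15, and to 9.68 to 142.2 CPM in the lines. Clone 14 also held more tendon markers, 126.3 CPM against 24.7 to 26.0 CPM in the 2 other clones. That difference lay in Tnmd, at 108.0 CPM against 8.30 and 9.26 CPM in clones 13 and 15. Scx, at 13.3 against 11.8 and 12.7 CPM, and Mkx, at 5.12 against 4.54 and 4.10 CPM, were close. Its skeletal muscle markers summed to 28.0 against 4.44 to 5.28 CPM, of which Des made up 27.1 against 4.35 and 5.14 CPM. Schwann and neural crest markers were higher, 2.92 against 0.673 to 1.04 CPM, and the endothelial sum lower, 5.66 against 24.0 to 28.7 CPM. That lower sum lay in Kdr, at 3.66 against 14.5 and 21.7 CPM in clones 13 and 15. It also lay in Tek, at 1.53 against 9.38 and 6.71 CPM. The other endothelial markers were sparse and higher in clone 14, Cdh5 at 0.287 against 0.0922 and 0.196 CPM. Pecam1 was at 0.185 against 0.0922 and 0.0842 CPM. The part of those cells in the difference between cultures was not tested. Without primary clone 14, no member passed the thresholds either.

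The matrilins are adaptor proteins of the pericellular and interterritorial matrix. Matn1, the cartilage matrix protein of mature cartilage, had 0 to 7 counts in every library, at most 0.0767 CPM. It was removed by the filter on low counts in both genotypes. Matn3, which binds COMP and collagens, stood at 0.997, 0.980 and 0.679 CPM in WT primary clones 3, 4 and 5 and at 0.177, 6.01 and 0.214 CPM in lines 3, 4 and 5. Line 4 was far above and lines 3 and 5 were below the primary cultures. The Log2FC of 1.26 (SE 1.35, adjusted p-value = 0.663) changed sign without line 4, to -2.17 (adjusted p-value = 0.0297). In the libraries labelled Prkd3-/-, Matn3 held 0.530 to 0.814 CPM in the primary cultures and 0.725, 0.370, 1.17 and 0.607 CPM in lines 13, 13a, 14 and 15, with a Log2FC of 0.16 (SE 0.48, adjusted p-value = 0.963). The lines lay on both sides of the primary range, with 13a below and 14 above.

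Matn4, the most widely expressed matrilin among the members, was counted at 3.85, 3.84 and 2.52 CPM in WT primary clones 3, 4 and 5 and at 0.0322, 8.85 and 4.56 CPM in WT lines 3, 4 and 5. Line 3 had only 2 read pairs while lines 4 and 5 exceeded every primary culture. The Log2FC was 0.39 (SE 1.31, adjusted p-value = 0.899), and it was -0.57 without line 4. Under the Prkd3-/- label, primary clones 13, 14 and 15 held 2.06, 0.943 and 1.09 CPM and lines 13, 13a, 14 and 15 held 0.802, 4.84, 13.5 and 2.54 CPM. Line 13 lay below and the other lines above the primary cultures, the same sides as for Sox9 in these lines (Log2FC 1.98, SE 0.91, adjusted p-value = 0.787), and the Log2FC was 0.99 without line 14. Across the 13 libraries, which share their cultures and depth, Pearson's r between Sox9 and Matn4 was 0.81 on log2(CPM + 0.5), while it was -0.64 between Sox9 and Acan and 0.92 between Comp and Hapln1. Of Matn4 exon bases 2.88% are shared with Rbpjl.

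Chad, a leucine-rich protein through which chondrocytes adhere to the matrix, was near the floor in WT, with 2 to 6 read pairs per library and 0.0307 to 0.0918 CPM, and was not tested there. In the libraries labelled Prkd3-/- it held 0.0370 to 0.168 CPM in primary cultures and 0.153, 0.0959, 0.594 and 0.135 CPM in lines 13, 13a, 14 and 15. Line 14, with 38 counts, was the highest library (Log2FC 1.38, SE 0.86, adjusted p-value = 0.836).

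The interaction of genotype and state, fitted over all 13 libraries, gave 0 called members and 0.0% of 21197 genes at an adjusted p-value under 0.05 in edgeR. DESeq2 called 37 genes and no member. Acan had the smallest unadjusted p of the members, 0.0287 (difference of Log2FC 7.23, SE 2.89, adjusted p-value = 1.00), where 3.97% of all genes had an unadjusted p under 0.05. That difference turned on 1 library, being 1.59 without line 13. Primary levels of the genotypes, which also differed in Xist and in the table they came from, are given side by side with no test: Sox5, Sox6, Acan, Comp, Hapln1 and Matn4 were lower in each primary culture labelled Prkd3-/- than in each WT primary culture, 6 of 10 members, a pattern of 18.4% of the 21197 genes, while Sox9, Chad, Matn1 and Matn3 overlapped. For example, Sox5 ranged from 3.60 to 3.79 CPM in the former and from 6.19 to 9.56 CPM in the latter.

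Line by line, the members were compared with the range of the primary cultures of the same genotype, leaving out Chad and Matn1, which were near the floor. WT line 3 had 7 of 8 members below that range and 0 above, where 43.1% of all genes tested were below and 41.0% above. It kept Sox5 and nearly all Sox6 but little Matn4. WT line 4 had 5 below and 3 above (42.7% and 40.3% of all genes), and WT line 5 had 6 below and 2 above (42.2% and 41.3%). Under the Prkd3-/- label, line 13 had 5 below and 1, Acan, above (40.0% and 38.1%), and line 13a had 3 below and 3 above (28.7% and 29.0%). Line 14 had 4 below and 3 above (36.5% and 35.1%), as did line 15 (33.8% and 35.4%). Most genes lay outside the primary range in either direction, so these counts describe the lines and set no member apart. Lines 13 and 13a share a clone number. Over 14357 well-counted genes they differed by a median of 26.2% beyond sampling noise, within the range of the other pairs of lines. Line 13 held 76.2 times more Acan and 8.03 times more Sox6, and line 13a 9.41 times more Sox9, 10.6 times more Comp and 6.03 times more Matn4. With 1 library per line, these ratios carry no replicate error.

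**Figure D4:**
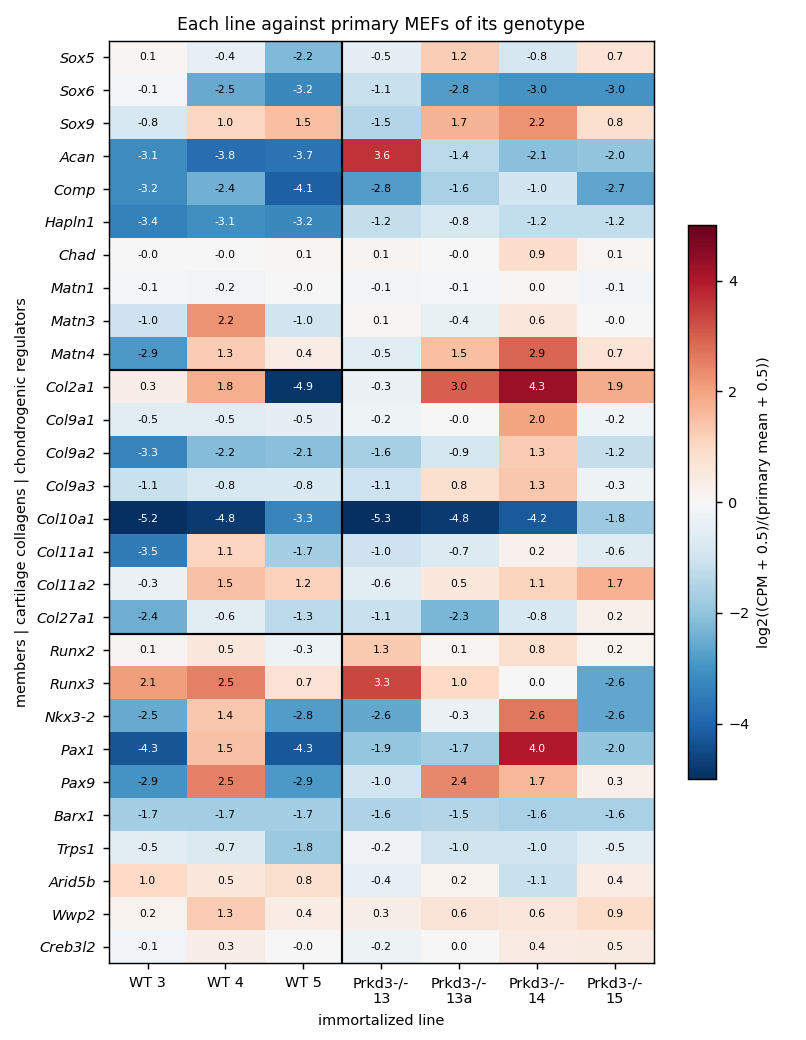
log2 ratio of each of the 7 immortalized lines (columns) to the mean of the primary cultures of its genotype, with 0.5 CPM added to both (colour, limited to -5 to 5), for the 10 members, 8 cartilage collagens and 10 chondrogenic regulators (top to bottom). Hapln1, Comp, Sox6, Col10a1, Barx1 and Trps1 were below 0 in all 7 lines, and Acan in all lines but 13.

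The fibril and network collagens of cartilage extended this picture. Of 8 cartilage collagens none passed the thresholds in WT, where Col9a1 and Col10a1 did so at an adjusted p-value under 0.05. The list had a median Log2FC of -1.48, and 5 of 8 were lower in every line than in every primary culture. Over all genes tested, 5.27% had an adjusted p-value under 0.05 and 17.3% were lower in every line. Col10a1, the collagen of hypertrophic cartilage, held 124.9 to 132.7 CPM in WT primary cultures and 3.00, 4.13 and 12.5 CPM in lines 3, 4 and 5 (Log2FC -4.30, SE 0.60, adjusted p-value = 0.0167). Under the Prkd3-/- label it held 67.1 and 51.8 CPM in primary clones 13 and 15, 3.44 CPM in clone 14 and 0.515 to 11.4 CPM in the lines. Clone 14 overlapped the lines, and the adjusted p-value was 0.710.

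Col2a1, the main fibril collagen of cartilage and a direct target of SOX9, was abundant in most libraries. It stood at 210.3, 205.5 and 161.6 CPM in WT primary clones 3, 4 and 5 and at 244.9, 675.8 and 6.12 CPM in lines 3, 4 and 5. Lines 3 and 4 were above the primary range and line 5, which had the highest Sox9 of the WT libraries, was far below it (Log2FC 0.68, SE 1.28, adjusted p-value = 0.818). Primary clones 13, 14 and 15 held 80.2, 98.6 and 126.9 CPM and lines 13, 13a, 14 and 15 held 82.5, 806.8, 2015 and 369.9 CPM. Here the order of the lines, 14, 13a, 15 and 13, was that of Sox9 (Log2FC 3.00, SE 0.99, adjusted p-value = 0.667). Col11a1 overlapped between states in both genotypes, with 66.9, 1591 and 236.6 CPM in WT lines 3, 4 and 5. The 8 genes taken to define chondrocytes, Col2a1 among them, summed to 168 to 218 CPM in WT primary cultures, 10.4 to 681 CPM in WT lines, and 84.9 to 129 and 83.3 to 2027 CPM under the Prkd3-/- label. That sum was mostly Col2a1 in every library. In every WT primary library 5 of the 8 were above 3 counts. Col9a1, Col9a2 and Col9a3 were lower in every WT line than in every WT primary culture, as were 17.3% of all genes tested. Col2a1, Col11a2, Cnmd and Ucma overlapped between states in WT. Col9a2 stood at 4.66 to 5.08 CPM in WT primary cultures and 0.0322 to 0.765 CPM in WT lines, and overlapped under the Prkd3-/- label at 0.398 to 3.02 and 0.0764 to 3.85 CPM. Col9a1 reached at most 0.261 CPM outside line 14 of that label, which held 1.77 CPM, and Snorc had no counts in any library.

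Of the 11 other cartilage matrix genes, 6 were tested in WT and none passed the thresholds, although Prg4, the joint lubricant lubricin, had an adjusted p-value of 0.0344 (Log2FC -2.11, SE 0.37). Mgp, the inhibitor of mineralization, was the most abundant of them. Its group means in primary and immortalized MEFs were 384.8 and 326.5 CPM in WT and 595.3 and 849.7 CPM under the Prkd3-/- label. WT lines 3, 4 and 5 held 42.3, 305.3 and 632.0 CPM, on both sides of their primary cultures. All 4 lines labelled Prkd3-/- lay above theirs (adjusted p-value = 0.769), as did 4.19% of all genes tested. Epyc and Itga10 had adjusted p-values of 0.195 and 0.924, and 40.6% and 33.5% of their exon bases are shared with an overlapping gene. Among 10 chondrogenic regulators, Barx1, a homeodomain factor, passed as lower in WT (Log2FC -6.55, SE 0.55, adjusted p-value = 0.00311), from 54 to 122 read pairs in the primary libraries to 0 or 1 in the lines, where its Log2FC depends on the prior count. With clone number as a replicate block neither Barx1 nor any other gene passed in WT, 0 of 19836. Barx1 was also below every primary culture in all 4 lines labelled Prkd3-/- (0 to 4 counts, adjusted p-value = 0.296), as were 5.26% of all genes tested. Arid5b, Trps1, Wwp2 and Creb3l2 did not pass. Arid5b, a cofactor of SOX9, lay above the primary cultures in all 3 WT lines (Log2FC 0.79, SE 0.14, adjusted p-value = 0.0359). Under the Prkd3-/- label it lay below the primary cultures in lines 13 and 14 and above them in lines 13a and 15 (Log2FC -0.15, SE 0.37, adjusted p-value = 0.954). Wwp2, a ubiquitin ligase, lay above the primary cultures of its genotype in all 7 lines (adjusted p-value = 0.274 in WT and 0.631 under the Prkd3-/- label).

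Signals of the pathway were represented by 7 genes, of which 6 were tested and none passed. Bmp2, a ligand that starts chondrogenesis, stood at 5.26, 5.04 and 8.24 CPM in WT primary clones 3, 4 and 5 and at 0, 0.186 and 0.0459 CPM in lines 3, 4 and 5 (Log2FC -6.31, SE 0.97, adjusted p-value = 0.0218), while lines 13, 13a, 14 and 15 held 5.71, 2.63, 0.469 and 2.97 CPM, overlapping their primary cultures. The receptors Bmpr1b, Pth1r and Fgfr3 had adjusted p-values of 0.265, 0.431 and 0.735 in WT. Of 8 enzymes and transporters for chondroitin sulfate, the glycosaminoglycan that loads aggrecan, Chst11 passed as higher in WT, with 29.8, 27.7 and 23.9 CPM in primary clones 3, 4 and 5 and 62.7, 52.9 and 66.2 CPM in the lines. Chst11 rose in all 3 WT lines with a Log2FC of 1.16 (SE 0.13, adjusted p-value = 0.00797), where 0.0605% of genes passed as higher, a call that was also lost with the replicate block. Ugdh, Chsy1, Csgalnact1 and Slc26a2 did not pass in either genotype.

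None of 10 tested paralogs of the members passed in WT. Vcan, the proteoglycan related to aggrecan, lies beside Hapln1 on chromosome 13 on the opposite strand. It held group means of 288.4 CPM in primary and 701.7 CPM in immortalized WT MEFs (Log2FC 1.28, SE 0.54, adjusted p-value = 0.267). Line 3, at 225.4 CPM, lay below the primary cultures, and lines 4 and 5, at 1040 and 840.2 CPM, above them. Matn2, the matrilin of fibroblasts and other soft tissues, held group means of 55.0 and 41.0 CPM in primary and immortalized WT MEFs. Those of Thbs3, of the family of Comp, were 51.8 and 58.0 CPM. Their adjusted p-values were 0.716 and 0.884. In the libraries labelled Prkd3-/-, no gene of these lists passed the thresholds.

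The genes whose pattern over the 13 libraries was most like that of a member, by Pearson's r of log2(CPM + 0.5) among 21197 genes, are given for members at 1 CPM or more in at least 3 libraries. Hapln1 was most like Trim9 (r = 0.985), Tenm1 (0.973) and Rpl39l (0.971). Comp was most like Cybrd1 and Ski (0.950 each) and Thbs4 (0.943), and Acan most like Rnf39 (0.938), Lmx1b (0.917) and AU020206 (0.913). For the SOX partners, the nearest were Gm29491 (0.940), Eppk1 and Gm47155 for Sox6, and Sox5os1 (0.881), Arfgap1 and Mylk2 for Sox5. Matn4 was most like Pcolce (0.946), Rbpjl (0.928) and Tmem79 (0.924). Sox5os1 and Rbpjl share exon bases with the member they resemble. All these values rest on the same 13 libraries and are descriptions.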

How the data were processed

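Poly-A RNA was sequenced from 13 MEF libraries. The authors deposited raw counts per gene, without normalization, in 2 tables. The submitters' notes name FastQC 0.12.0, STAR 2.7.10a, SAMtools 1.18 and featureCounts of Subread 2.0.6 with mm10. For WT the file header gives unstranded counting of read pairs on Ensembl GRCm38 genes, each pair being assigned to every gene it overlaps. The command for the other table is not given in the sources used here.

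From these counts, immortalized and primary libraries were compared within each genotype by the quasi-likelihood test of edgeR 4.0.16 in R 4.3.3, after TMM normalization and filterByExpr by group, with robust dispersions. A gene passed at an adjusted p-value under 0.01 (Benjamini-Hochberg over all genes tested) and a |Log2FC| of at least 1, the thresholds of the study, and the interaction over 13 libraries at 0.05. The standard error is the size of the Log2FC divided by the square root of F. The fits were run on simulated data with the same dispersion in every library, so they were not tested at the unequal spread seen between these groups. Floors of 3 counts cover counting error only. Alternatives were DESeq2 1.42.0, its size factors in edgeR, no filter, limma 3.58.1 with a weight per group, a joint fit of all libraries, clone number as a replicate block, lines 13 and 13a summed, an adjusted p-value under 0.05, and each library left out.

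The sample names and the study's methods give same-numbered WT libraries as the same clone. The deviations of same-numbered libraries from their group means correlated at -0.066, 0.033 and -0.075 in WT and between -0.314 and 0.127 under the Prkd3-/- label. For libraries of different numbers the correlations were -0.071 to 0.122 in WT and -0.288 to 0.375 under the Prkd3-/- label. These values do not set same-numbered pairs apart.

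The members and lists were chosen with earlier results of these data known. All 10 members are named, and of each related list every gene that passed plus at most 4 more with the highest mean CPM. Col9a1, Col9a2 and Snorc were chosen for naming after their values were seen. Promoter sequences are RefSeq's, and symbols and exons are those of GENCODE for GRCm38. The genes most like Sox9 are not reported here.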

Additional observations from a re-analysis of the deposited data

Results flagged for a closer look

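Among the 4 immortalized lines labelled Prkd3-/-, 9 levels were set apart from the other lines by a gap larger than Dixon's critical value, out of 36 such groups of 4 examined. For independent groups of normally distributed values, chance would set apart about 1 in 20. Levels of these lines need not be so distributed, and the groups share the same 4 lines. The 9 of 36 can therefore not be read against that rate. No explanation was tested for any of them.

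Line 13 stood apart in Sox6, at 1.87 CPM, and in Acan, at 25.1 CPM. Line 13a did so in Hapln1, at 0.206 CPM, which is 15 counts. Line 15 stood apart in Col10a1, at 11.4 CPM. The remaining levels were those of line 14, with Chad at 0.594 CPM, Matn2 at 434.6 CPM, Pth1r at 28.1 CPM, Fgfr3 at 6.43 CPM and Epyc at 1.95 CPM. Of the Epyc exon bases, 40.6% are shared with an overlapping gene.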

How the results depend on the processing

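In WT, 361 genes and 1 member, Hapln1, passed. DESeq2 called 1355 genes and 3 members (Hapln1, Acan and Comp), limma with a weight per group 184 and 0, the joint fit of 13 libraries 0 and 0 (2199 genes at an unadjusted p under 0.05), clone number as a replicate block 0 and 0 (2784 genes), and an adjusted p-value under 0.05 gave 1045 and 3. Leaving out 1 library gave 48 to 743 genes and 0 to 3 members. It gave 0 members without any WT primary library or line 4, 1 without line 5 (Comp), and 3 without line 3 (Sox6, Acan and Hapln1). Hapln1 was at -6.21 (adjusted p-value = 0.199) in limma and -5.98 (0.0660) in the joint fit of edgeR. Under the Prkd3-/- label DESeq2 called 192 genes, the joint fit 1 and each left-out library 0, and for the interaction DESeq2 called 37 genes and left-out libraries gave 0 to 2, with 0 members throughout.

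Signs that turned belonged to values that did not pass. Matn3 in WT was -0.56 in limma, -0.60 with the replicate block and -2.17 (without line 4) to 1.81 with 1 library left out, and Matn4 in WT -1.55, -0.44 and -0.57 (without line 4) to 0.98. Acan under the Prkd3-/- label was -2.46 in limma, -3.41 with the replicate block and -3.67 (without line 13) to 2.36. With 1 library left out, Sox5 there was -0.075 (without line 13a) to 0.70 and Matn3 -0.19 (without line 14) to 0.39. The interaction of Matn3 was 0.58 in limma, 0.88 with the replicate block and -1.67 to 2.32 (without WT line 4), that of Sox6 -3.32 to 0.24 (without WT line 3) and that of Sox9 -0.021 (without line 14) to 0.97. Values that did not pass and moved by over 1.5 times included Sox9, at 0.39 in WT without line 5 and 0.86 under the Prkd3-/- label without line 14, Sox5 in WT, at -0.15 without line 5 and -1.14 without line 3, and Sox6, at -0.90 in WT without line 5 and -4.71 under the Prkd3-/- label without line 13. The Acan interaction was 2.33 with the replicate block and 3.12 in limma. The cause was not tested. With the replicate block every WT call was lost, Hapln1, Barx1 and Chst11 included, and no call was gained under the Prkd3-/- label. Of the other values for single members, 357 kept their sign and side of the threshold. Depth limits Matn1 and Chad, which lay near 3 counts in most libraries.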
